A study of Mus musculus with 4 samples.

Results

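Spinal cord and paraxial mesoderm share a progenitor at the caudal end of the embryo, the neuromesodermal progenitor (NMP), which is usually recognised by joint expression of Sox2, a transcription factor of pluripotent and neural cells, and T (Brachyury), a transcription factor of the primitive streak and notochord. The cells described here had counted RNA of Sox2 and none of T in a culture made to hold NMPs, called Epi-NMP. They were chosen by their own counts: Epi-NMP cells marked TRUE in the deposited cell table with at least 2 unique molecular identifiers (UMIs, counted RNA molecules) of Sox2, 0 of T, 0 of Tbx6, and under 2 of Meox1 and Tcf15 together. Tbx6, Meox1 and Tcf15 mark presomitic and somitic mesoderm. Of the 1111 TRUE Epi-NMP cells, 179 met the rule (16.1%, exact Clopper-Pearson interval 14.0% to 18.4%), out of 2624 Epi-NMP barcodes and 10579 barcodes in the series.

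Epi-NMP was made from Epi-CE cells that were lifted with Accutase and replated for 2 days in N2B27 medium with FGF2 at 20 ng/ml and the GSK3 inhibitor CHIR99021 at 3 µM, which activates WNT signalling. Epi-CE itself began as epiblast stem cells (EpiSCs) in FGF2 at 12 ng/ml and activin A at 25 ng/ml, which then lost activin A, received FGF2 at 20 ng/ml, and received CHIR99021 at 3 µM on day 3. Epi-CE-T was a Bra:GFP reporter line taken through the Epi-CE protocol and sorted for GFP after 72 h, and ES-NMP was grown from embryonic stem cells (ESCs), first for 2 days in N2B27 and then for 24 h with CHIR99021 at 3 µM. All 4 libraries carry the ESC line E14Tg2a as their strain label, 8700 cells were loaded for each, and each group is 1 library. There is therefore no replicate, no test and no p-value here, and every 95% interval covers counting error only.

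In the embryo, cells leaving the NMP state for the spinal cord keep Sox2, lose T, and pass through a preneural stage under FGF and WNT signals before Irx3, Pax6 and the proneural factors are switched on. Cells leaving for mesoderm take up Tbx6 and lose Sox2. Nkx1-2, a homeobox factor, and Cdx2, a caudal homeobox factor, mark the caudal epiblast and the preneural stage that follows it.

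The Sox2-without-T cells had a median of 23180 UMIs and 4489 detected genes per cell, against 18540.5 UMIs and 4122 genes in the 932 other TRUE Epi-NMP cells. The TRUE cells held 22261452 UMIs in Epi-NMP, the smallest total of any library, and 71563029 in ES-NMP, the largest. Median UMIs per TRUE cell were 19252 in Epi-NMP, 22066 in ES-NMP, 22613.5 in Epi-CE and 19189 in Epi-CE-T. Mitochondrial transcripts made up 2.28% of UMIs in the Sox2-without-T cells and 2.69% in the other cells. The other cells were divided into 286 with Sox2 and T, 431 with T and under 2 Sox2 UMIs, 69 without T but with the mesoderm genes, and 146 with none of these. Levels are UMIs summed over a set of cells, per 1000000 UMIs of that set (CPM). A gene was measured when both sets together held at least 100 UMIs of it, and the genes of the rule are left out of all counts. Across 57 barcode sequences that occurred in more than 1 library, 3 belonged to Sox2-without-T cells and 5 to other TRUE Epi-NMP cells.

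The rule set the levels of its own genes, which are given as a description. Sox2 had 2 to 19 UMIs per cell with a median of 4, which came to 202 CPM, against 190 CPM in the cells with Sox2 and T. T and Tbx6 were at 0 by choice, and a count of 0 does not show the absence of their RNA. Meox1 was at 0.69 CPM and Tcf15 at 3.68 CPM.

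Irx3, Neurog2 and Hes5 were taken as markers of these cells with earlier results of these data known. All were higher in the Sox2-without-T cells than in the other cells, which is a description and not independent support. Irx3, an Iroquois homeobox factor of the neural tube, was at 48.9 CPM in the Sox2-without-T cells (42.6 to 56.0) and 18.4 CPM in the other cells (16.4 to 20.5), which is 2.66-fold higher (2.23 to 3.17). Neurog2, a proneural basic helix-loop-helix factor, was at 14.9 CPM against 2.57 CPM, 5.81-fold higher (3.93 to 8.68). Hes5, a Notch-regulated repressor that keeps neural progenitors undifferentiated, was at 25.3 CPM against 5.30 CPM, 4.76-fold higher (3.59 to 6.34). After every cell was thinned at random to 8000 UMIs, Irx3 had a UMI in 34.6% of the Sox2-without-T cells and 10.8% of the other cells, Hes5 in 12.3% and 3.54%, and Neurog2 in 7.26% and 1.29%. In the mesoderm cells without T (median 20258 UMIs before thinning), the shares were 5.80% for Irx3, and 0 of 69 cells for Hes5 and for Neurog2. How much of the Irx3 there was free RNA from other cells was not tested. Without thinning, the shares were 52.5% and 21.1% for Irx3, 24.0% and 7.0% for Hes5, and 14.5% and 2.6% for Neurog2, in the Sox2-without-T cells and the other cells.

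Established neural progenitor genes were scarcely present. Sox1, a factor of neural plate cells, had 4 UMIs in all 179 cells (0.92 CPM, against 0.67 CPM in the other cells), and Pax6, a factor of neural tube progenitors, had 3 UMIs (0.69 CPM, against 0.22 CPM). Sox3, a close relative of Sox2, was at 3.91 CPM against 1.40 CPM. Sox21 was at 0.23 CPM against 4.08 CPM, lower than in the other cells. The name of a neural cell type is therefore not used, and the cells are called by their rule.

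The caudal epiblast factors Nkx1-2 and Cdx2 were found in most of the Sox2-without-T cells. Nkx1-2 was at 146 CPM in the Sox2-without-T cells (135 to 158) and 63.3 CPM in the other cells (59.7 to 67.1), 2.31-fold higher (2.09 to 2.55), and had 0 to 15 UMIs per cell with a median of 3. Cdx2 was at 506 CPM against 295 CPM, 1.72-fold higher (1.63 to 1.81), with 0 to 35 UMIs per cell and a median of 11. In thinned cells Nkx1-2 was found in 61.5% against 29.4% and Cdx2 in 91.1% against 62.1%. Over all measured genes, 3.19% were at least 1.5-fold higher in the Sox2-without-T cells than in the other cells and 10.6% were at least 1.5-fold lower (8993 genes), and the median log2 ratio was 0.00.

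**Figure D1:**
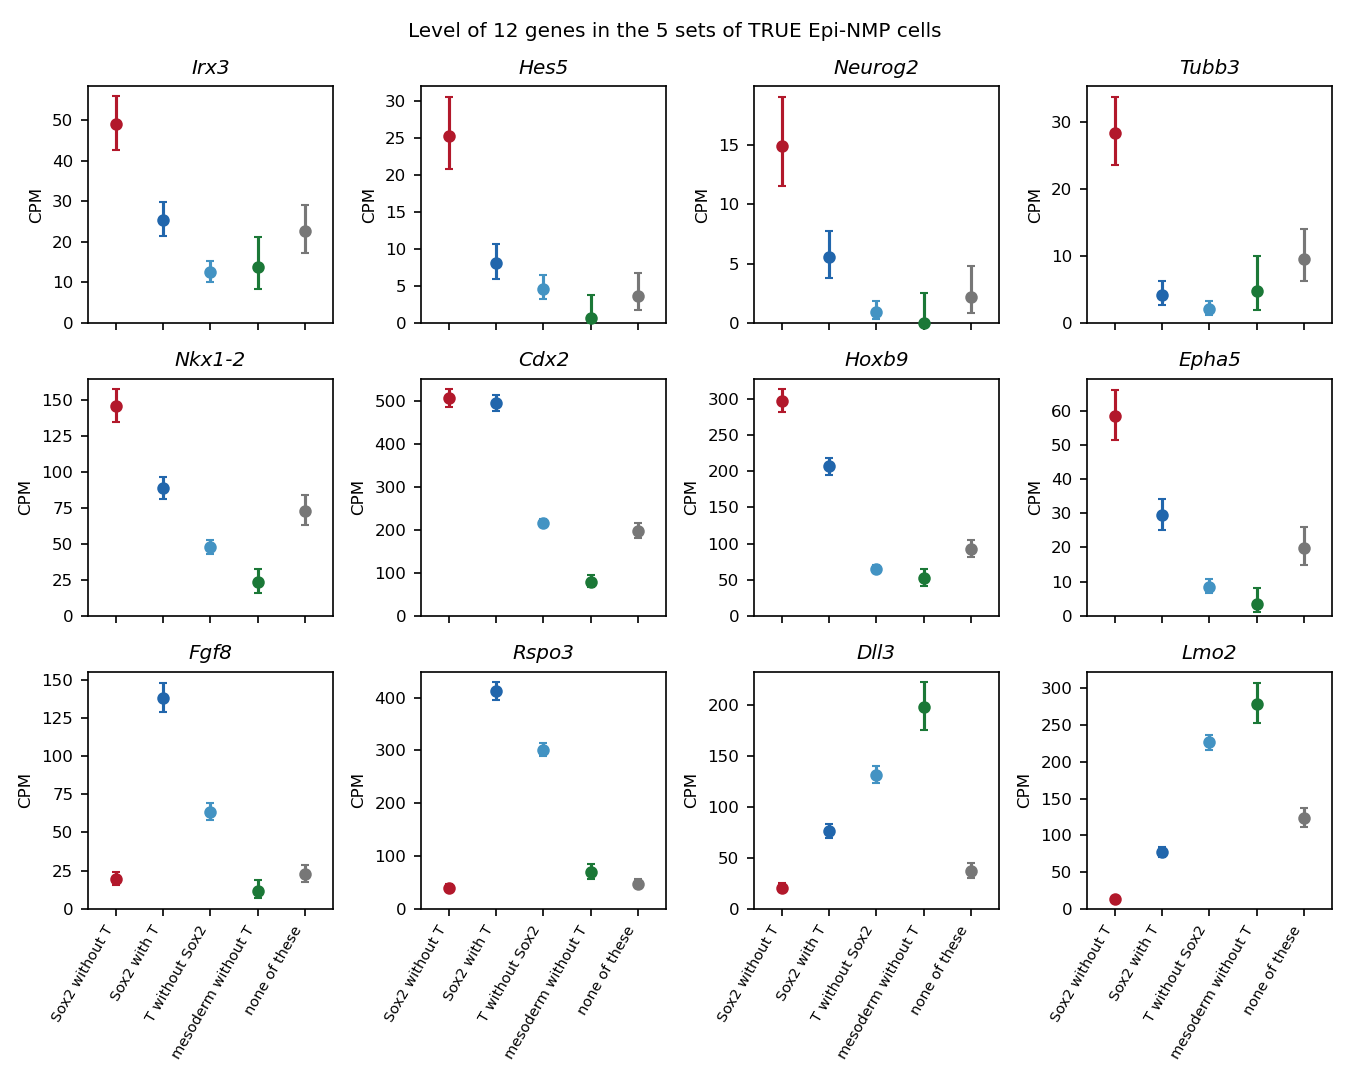
Level of 12 genes (CPM, vertical axes from 0) in the 5 sets of TRUE Epi-NMP cells, with 95% Poisson intervals for counting error; the Sox2-without-T cells are red. Irx3, Hes5, Neurog2, Tubb3, Nkx1-2, Hoxb9 and Epha5 were highest in the Sox2-without-T cells, Cdx2 was shared with the cells with Sox2 and T (506 and 494 CPM), and Rspo3, Dll3 and Lmo2 were lowest in the Sox2-without-T cells.

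Some of the neural and neuronal genes stood higher and others lower. In the spinal cord and neural progenitor list, 13 of 22 genes were measured, 4 were at least 1.5-fold higher, 2 were at least 1.5-fold lower, and the median log2 ratio was 0.25. The 4 higher genes were Hes5, Irx3, Lix1 and Ncam1. Lix1 was at 30.6 CPM against 11.7 CPM (2.61-fold, 2.08 to 3.25), and Ncam1, a neural cell adhesion molecule, was at 225 CPM against 94.98 CPM (2.37-fold, 2.19 to 2.57). Ncam1 was at 293 CPM in the shallower Epi-NMP barcodes marked FALSE, above its level in the Sox2-without-T cells, and its log2 ratio was 0.58 with all Epi-NMP barcodes, against 1.25. Nes, the intermediate filament nestin, was 2.29-fold lower (16.3 against 37.4 CPM), and Fabp7, a fatty acid binding protein of radial glia, was 2.23-fold lower (3.91 against 8.71 CPM).

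The proneural and early neuron list was split in the same way, with 9 of 23 genes measured, 3 of them higher and 3 lower. The list's median log2 ratio of 0.46 turned to -0.48 without the cells under the 10th and over the 90th percentile of depth, when 8 genes were measured, and to -1.07 with levels from thinned counts, when 5 were. The higher genes were Neurog2, Tubb3 and Mfng. Tubb3, a neuronal tubulin, had the highest ratio among the measured genes named here, at 28.3 CPM in the Sox2-without-T cells and 4.13 CPM in the other cells (6.84-fold, 5.09 to 9.25). A single cell supplied 22.0% of its UMIs, and without that cell it was at 22.1 CPM and 5.36-fold higher (3.92 to 7.36). Another cell held 22 Tubb3 UMIs. In the 33 Sox2-without-T cells with exactly 2 Sox2 UMIs, Tubb3 was at 4.23 CPM, near its level in the other cells. Mfng, a Fringe enzyme that modifies Notch receptors, was at 22.7 CPM against 6.81 CPM (3.34-fold, 2.54 to 4.39). Stmn2, a neuronal microtubule regulator, went the other way, at 48.5 CPM against 133 CPM (2.74-fold lower, 2.38 to 3.17; a log2 ratio of -0.79 with a Sox2 minimum of 1 UMI), as did Elavl4, a neuronal RNA-binding protein, at 3.45 CPM against 8.26 CPM (2.40-fold lower, 1.41 to 4.39). Btg2, an antiproliferative gene, was also lower, at 28.03 CPM against 54.0 CPM. Neurog1, a relative of Neurog2, held 21 UMIs in the Sox2-without-T cells and 9 in the other cells, too few to be measured. Dcx, a microtubule protein of young neurons, had no UMI in either set.

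Hes5 is the member of the Notch pathway that stood highest, and its promoter is shown because Notch acts on it through the DNA-binding factor RBPJ. The 250 bases before the annotated start, from RefSeq on GRCm38.p6, lie at chr4:154960673-154960922 on the plus strand, with matches to the RBPJ core TTCCCAC or its reverse complement GTGGGAA in capitals.
Hes5: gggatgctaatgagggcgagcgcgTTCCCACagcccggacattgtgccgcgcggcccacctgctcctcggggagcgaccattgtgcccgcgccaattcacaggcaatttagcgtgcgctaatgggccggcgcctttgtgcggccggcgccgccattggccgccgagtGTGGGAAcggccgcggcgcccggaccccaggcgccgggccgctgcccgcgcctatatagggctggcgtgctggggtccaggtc
The matches, 1 on each strand, begin 226 and 83 bases before the start. Of 32851 promoter windows of the same length, 5.42% held at least 1 match on either strand and 0.161% held at least 2. A match describes the letters only.

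The Notch pathway list held lower genes beside Hes5 and Mfng, which were higher. Of 16 genes, 12 were measured, and 2 of these were higher and 6 lower, around a median log2 ratio of -0.60. Hes1, the other main Notch-regulated repressor, was at 62.0 CPM in the Sox2-without-T cells and 162 CPM in the other cells (2.61-fold lower, 2.31 to 2.97). The receptors Notch1 (12.6 against 28.9 CPM) and Notch2 (12.0 against 24.5 CPM) were 2.28-fold and 2.05-fold lower. Dll3, a Notch ligand of presomitic mesoderm, was at 20.4 CPM against 104 CPM (5.09-fold lower, 4.11 to 6.37), while the ligand Dll1 was at 17.7 CPM against 22.3 CPM. Of the Hes5 UMIs, 24.5% came from 1 cell, which held 27 of them beside 0 of Nkx1-2, 0 of Neurog2 and 12 of Cdx2. Without that cell Hes5 was at 19.2 CPM and 3.61-fold higher (2.66 to 4.90). With the rule applied to counts thinned to 8000 UMIs, which chose 114 cells, the log2 ratio of Hes5 was 0.97, against 2.25 as chosen here.

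Other genes at the high end had varied functions. Sema3a, a secreted axon guidance cue, was at 29.2 CPM against 5.42 CPM (5.39-fold, 4.10 to 7.09). Fgfbp3, a secreted carrier of FGFs, was at 57.9 CPM against 12.0 CPM (4.82-fold, 4.00 to 5.81; a log2 ratio of 1.40 with the rule on thinned counts, against 2.27), and Epha5, an ephrin receptor, at 58.4 CPM against 16.8 CPM (3.48-fold, 2.94 to 4.13). Gbx2, a homeobox factor of the anterior hindbrain that is also found in the caudal embryo, was at 79.3 CPM against 27.5 CPM (2.88-fold, 2.50 to 3.31). Btbd17 (42.0 against 13.6 CPM) and Igfbpl1 (39.1 against 13.1 CPM) were 3.10-fold and 2.98-fold higher. In the dorsal neural tube list Msx1, a BMP-regulated homeobox factor, was 2.21-fold higher (43.7 against 19.8 CPM), while Pax3, a factor of the dorsal neural tube and somites, was 3.46-fold lower (1.84 against 6.37 CPM).

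The trunk Hox genes, which record position along the body axis, were mostly higher. Of the 15 genes in Hox groups 5 to 9, 12 were measured, and 7 of these were at least 1.5-fold higher and 1 lower, around a median log2 ratio of 0.77. Hoxb9 was at 298 CPM in the Sox2-without-T cells (282 to 314) and 115 CPM in the other cells (110 to 120), 2.58-fold higher (2.41 to 2.77). Hoxa9 (55.8 against 19.4 CPM), Hoxc9 (116 against 48.0 CPM) and Hoxa7 (124.8 against 53.9 CPM) were 2.87-fold, 2.41-fold and 2.31-fold higher. In groups 10 to 13, Hoxc10 (44.8 against 14.8 CPM) and Hoxa10 (16.3 against 7.203 CPM) were 3.03-fold and 2.26-fold higher, and these were 2 of the 3 genes measured among 12. In groups 1 to 4, 4 of 11 measured genes were higher and Hoxb1 was 3.12-fold lower (5.05 against 15.7 CPM).

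Hoxd9 was at 27.8 CPM against 40.3 CPM, 1.45-fold lower (1.19 to 1.77), although Hoxa9, Hoxb9 and Hoxc9 were all more than 1.5-fold higher. Hoxd10 was at 4.595 CPM against 6.37 CPM, with an interval of the ratio from 0.43 to 1.17, and its log2 ratio was 0.76 with the rule on thinned counts. Hoxa5 was the group 5 to 9 gene counted as lower, at 5.51 CPM against 14.7 CPM.

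**Figure D2:**
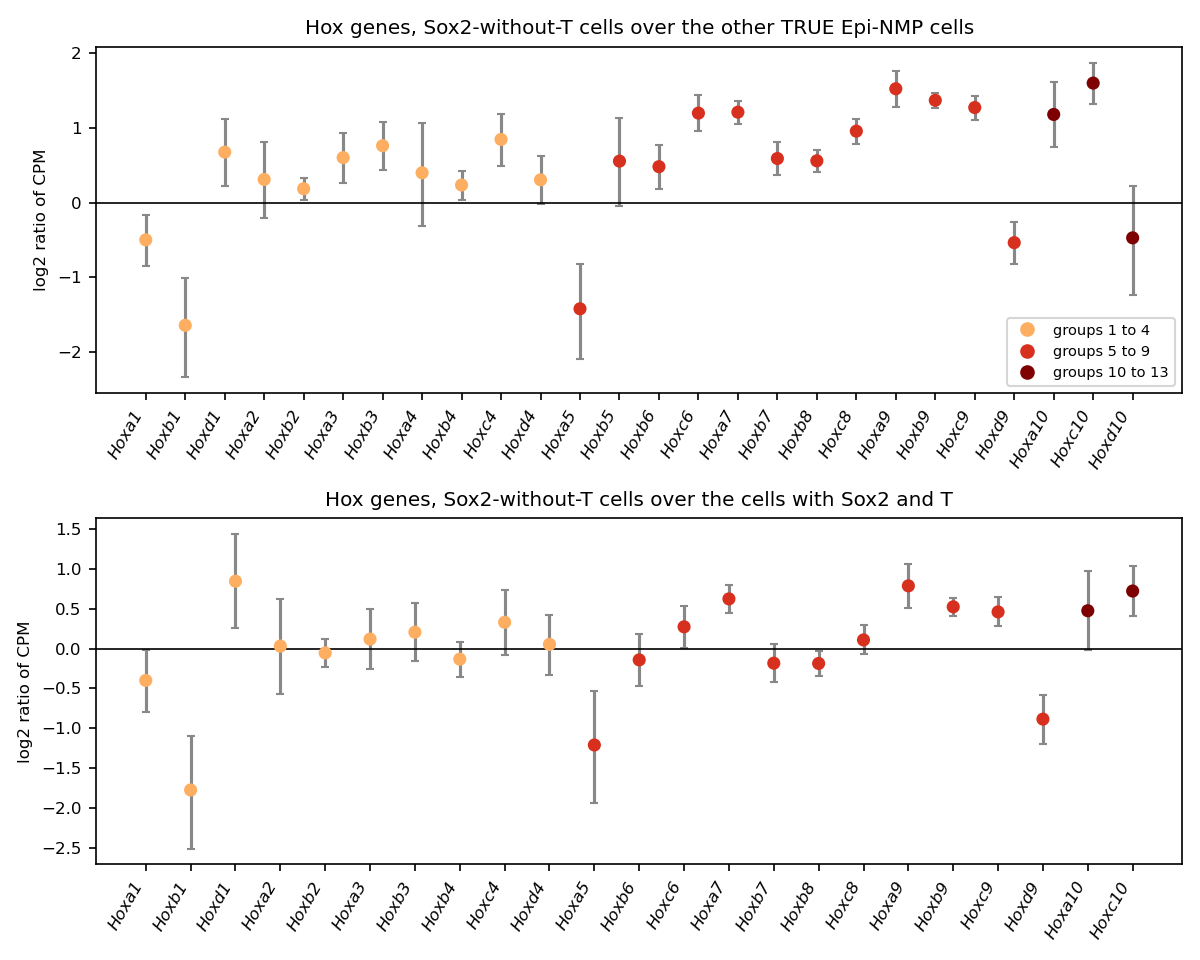
Log2 ratio of CPM for the measured Hox genes in the Sox2-without-T cells, over the other TRUE Epi-NMP cells (top) and over the cells with Sox2 and T (bottom), with 95% counting intervals. Hoxa9, Hoxb9, Hoxc9 and Hoxc10 lay above 0 in both panels and Hoxb1, Hoxa5 and Hoxd9 below 0 in both. Against the cells with Sox2 and T, the median of groups 1 to 4 was 0.04. Of the 10 genes measured there, 1 was at least 1.5-fold higher and 1 at least 1.5-fold lower.

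Mesodermal genes were lower as a group, also those that the rule did not use. Of 24 paraxial and presomitic mesoderm genes, 13 were measured, none was higher, 12 were lower and the median log2 ratio was -2.58. The rule chose cells without T, Tbx6, Meox1 and Tcf15, and these genes are expressed in the same mesodermal cells, so the count describes what the rule removed. Rspo3, a secreted enhancer of WNT signalling, was at 39.8 CPM against 281 CPM (7.07-fold lower, 6.07 to 8.27). Mesp1, a factor of nascent mesoderm, had no UMI in the Sox2-without-T cells and 13.1 CPM in the other cells, which is at least 19.0-fold lower against a floor of 3 UMIs over the set. Msgn1 had no UMI in any of the 5 sets. Hes7, the oscillating repressor of the segmentation clock, was the measured gene not called, at 74.0 CPM against 106 CPM.

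**Figure D3:**
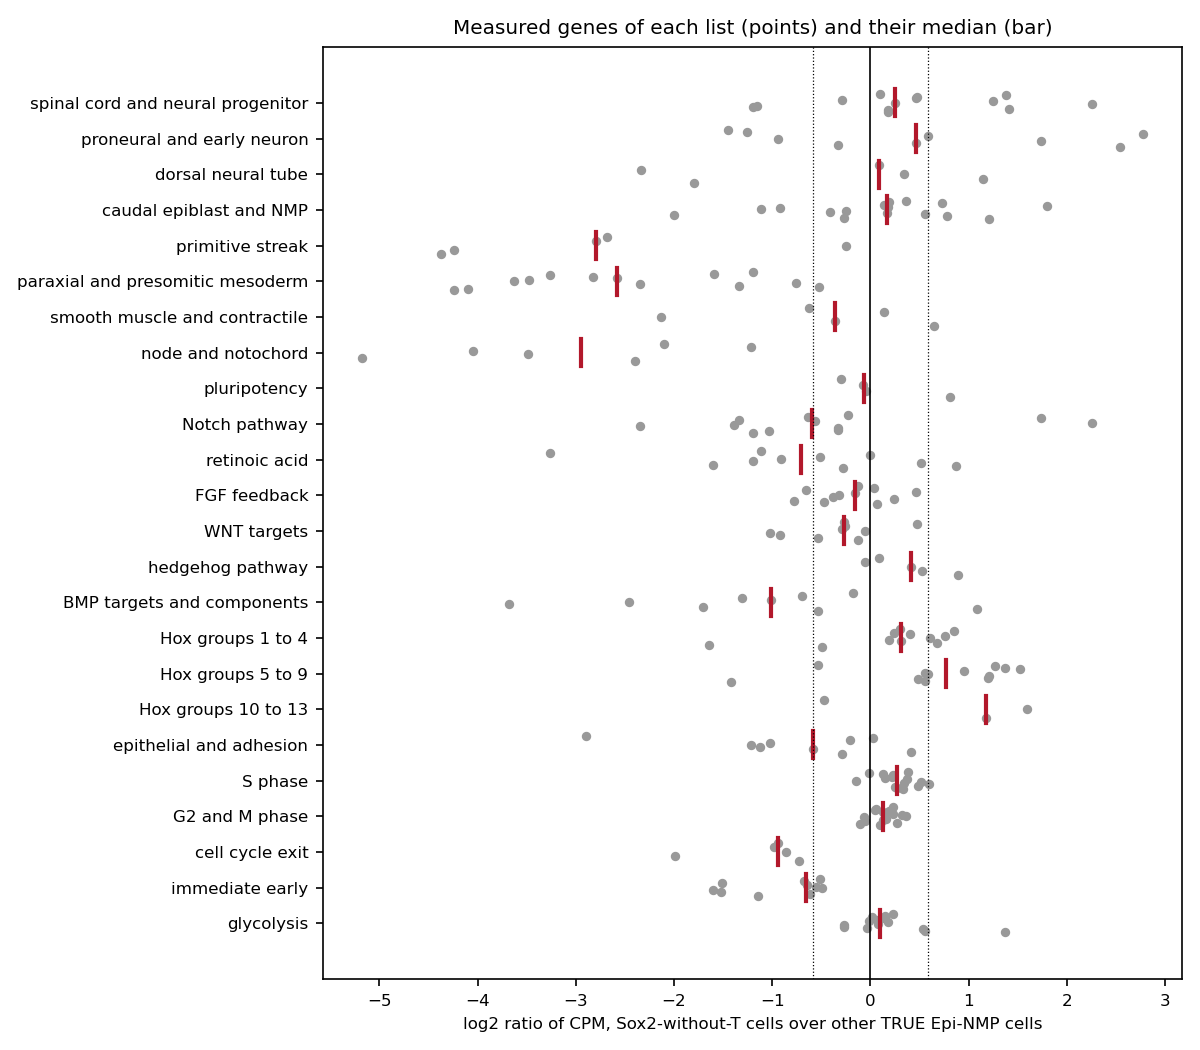
Log2 ratio of CPM, Sox2-without-T cells over other TRUE Epi-NMP cells, for every measured gene of the lists with at least 3 measured genes (grey points), with the list median (red bar); dotted lines mark 1.5-fold. The medians of the primitive streak (-2.80), paraxial mesoderm (-2.58) and node (-2.94) lists lie furthest left, and those of Hox groups 10 to 13 (1.18) and 5 to 9 (0.77) furthest right. The rule removed cells with T and the mesoderm genes, so the streak, mesoderm and node medians describe in part what it removed.

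Markers of other cell types were low. Summed over 5 node and notochord markers, the level was 5.74 CPM in the Sox2-without-T cells and 49.8 CPM in the other cells, with Noto at 0 and Shh at 1 UMI. This sum was 43.6 CPM in the cells with Sox2 and T and 74.1 CPM in those with T and little Sox2. It was 7.56 CPM in the mesoderm cells without T and 15.9 CPM in the cells with none of these. The rule removed cells with T, a factor of the notochord, so the low sum describes in part what the rule removed. The 5 neural crest markers summed to 7.58 CPM against 35.7 CPM, with Sox10, Foxd3 and Tfap2a at 0, as in the mesoderm cells without T. Sox9 held 32 of the 33 UMIs of this sum in the Sox2-without-T cells. The 4 endoderm markers summed to 3.68 CPM against 17.8 CPM, with Ttr at 0. The 4 endothelial markers summed to 0.46 CPM against 1.90 CPM, with Cdh5, Pecam1 and Tal1 at 0. The neural crest and endoderm sums were highest in the cells with T and little Sox2, at 52.0 and 24.5 CPM. The endothelial sum was highest in the mesoderm cells without T, at 8.94 CPM. The rule removed these cells, so the low sums may describe in part what it removed. The 6 paraxial mesoderm markers, of which the rule used 3, summed to 5.28 CPM against 109 CPM. The smooth muscle and pluripotency markers were the exceptions. The 4 smooth muscle markers summed to 28.3 CPM against 22.7 CPM, and 52.6% of the UMIs of Acta2, a smooth muscle actin, came from 1 cell. The 5 pluripotency markers summed to 20.0 CPM against 13.8 CPM. Pou5f1, a core pluripotency factor, was at 14.9 CPM against 8.54 CPM, with 46.2% of its UMIs in 1 cell; without that cell it was at 8.10 CPM, a ratio of 0.95 (0.64 to 1.38).

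Among genes with at least 20 CPM in the higher set, the 12 lowest ratios ran from 9.62-fold to 41.6-fold lower. The rule removed cells with T and the mesoderm genes, so these ratios may describe in part what it removed. How far they do was not tested. Lmo2, a partner of blood and endothelial transcription factors, was at 13.1 CPM in the Sox2-without-T cells and 165 CPM in the other cells (12.6-fold lower, 9.72 to 16.7). Arg1, the enzyme arginase, was at 8.04 CPM against 110.0 CPM (13.7-fold lower, 9.80 to 19.7; a log2 ratio of -2.06 with the rule on thinned counts), and Clu, a secreted chaperone, at 6.89 CPM against 88.9 CPM. Aldh1a2, the enzyme that makes retinoic acid in paraxial mesoderm, was 9.62-fold lower (2.76 against 26.5 CPM), and Chrd, a secreted BMP antagonist of the node, was 11.2-fold lower (1.84 against 20.7 CPM). Krt19, a keratin, had 3 UMIs in the Sox2-without-T cells (0.69 against 28.7 CPM, 41.6-fold lower, 14.2 to 203). Klhl6, Aplnr, Cthrc1, Car3, Bgn and Sprr2a3 were 10.4-fold to 23.4-fold lower, and Sprr2a3 is uncertain because it has near-identical copies in the genome. Single cells held 9 of the 15 Bgn UMIs and 9 of the 18 Sprr2a3 UMIs, and without them the log2 ratios were -4.69 for Bgn, against -3.38, and -5.06 for Sprr2a3, against -4.07. With a Sox2 minimum of 1 UMI the log2 ratio was -1.72 for Bgn, -2.91 for Cthrc1 and -2.64 for Lmo2. In sums such as these, fewer cells with a gene and less RNA per cell cannot be told apart.

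The caudal epiblast and NMP list held genes that were higher and genes that were lower. Of 21 genes, 16 were measured, 4 were higher, 3 were lower and the median log2 ratio was 0.17. Beside Nkx1-2, Cdx2 and Epha5, the RNA-binding protein Lin28a was higher (113 against 68.6 CPM, 1.65-fold). Fgf8, the main FGF ligand of the caudal epiblast, was at 19.5 CPM against 78.1 CPM (4.00-fold lower, 3.21 to 5.04), and Cyp26a1, which breaks down retinoic acid, at 12.2 CPM against 26.4 CPM (2.17-fold lower, 1.63 to 2.94). With the rule on thinned counts Cyp26a1 was no longer 1.5-fold lower (log2 ratio -0.22), and with levels from thinned counts Fgf8 was at -1.40. Sp5, a direct WNT target, was the remaining lower gene, at 93.5 CPM against 177 CPM. Wnt3a, a caudal WNT ligand, held 3 UMIs against 89 and was not measured.

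In the pathway lists that follow, more genes were lower than higher, except in the hedgehog list. Across all 8993 measured genes, 3.19% were at least 1.5-fold higher and 10.6% at least 1.5-fold lower. With so few measured genes per list, a count of 1 or 2 is not read as a result about a pathway. Of 11 FGF feedback genes, all measured, none was higher and 2 were lower, with a median log2 ratio of -0.16. The lower genes were Spry4 (3.45 against 5.92 CPM, 1.72-fold, 0.996 to 3.18) and Spred1 (28.5 against 44.8 CPM, 1.57-fold, 1.301 to 1.92), and with a Sox2 minimum of 1 UMI neither was 1.5-fold lower (log2 ratios of -0.58 and -0.32). Of 13 WNT target genes 9 were measured, none was higher and 2 were lower, which were Nkd1 (65.3 against 133 CPM) and Sp5, while Ccnd1, cyclin D1, was at 237 CPM against 170 CPM. In the list of BMP targets and components 9 of 12 were measured, with 1 higher and 6 lower. Id3, a BMP-induced inhibitor of differentiation, was at 46.6 CPM against 152 CPM (3.27-fold lower, 2.83 to 3.79), whereas Id2 was at 133 CPM against 62.5 CPM (2.13-fold higher, 1.92 to 2.35). Gli1, a hedgehog target, was 1.85-fold higher (11.5 against 6.20 CPM), the 1 gene called among 5 measured of 10 in its list. Among 10 measured retinoic acid genes of 15, the receptor Rarg was 1.83-fold higher (60.4 against 33.1 CPM) and 5 were lower, among them Stra6, a retinol transporter (28.03 against 52.7 CPM).

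Cell cycle genes differed mainly at the exit side. All 15 S phase genes were measured with a median log2 ratio of 0.27 and 1 gene past 1.5-fold, Mcm6 of the replicative helicase (229 against 151 CPM, 1.52-fold); its ratio is at the threshold, and its log2 ratio was 0.48 with the rule on thinned counts. The 15 G2 and M phase genes had a median of 0.13 and none past 1.5-fold. All 5 measured cell cycle exit genes of 7 were lower, with a median of -0.95. Cdkn1c, an inhibitor of cyclin-dependent kinases, was at 164 CPM in the Sox2-without-T cells and 650 CPM in the other cells (3.97-fold lower, 3.68 to 4.29). Of 10 measured immediate early genes of 13, none was higher and 7 were lower, among them Junb (30.3 against 92.3 CPM) and Fos (111 against 244 CPM). These genes respond to cell handling, and their part in the other differences was not tested. Slc2a1, a glucose transporter, was the 1 glycolysis gene of 14 measured that was called, at 806 CPM against 312 CPM (2.58-fold higher, 2.48 to 2.70). Tpm1, a tropomyosin, was 4.39-fold lower (168 against 737 CPM).

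The Sox2-without-T cells were also set against the cells with Sox2 and T, which met the same Sox2 minimum. Of 7169 measured genes, 2.02% were at least 1.5-fold higher and 5.18% at least 1.5-fold lower. Set sizes and measured genes differ from the comparison with all other cells, so the shares of the comparisons cannot be set against each other directly. In the neural progenitor list 4 of 10 measured genes were higher, which were Hes5 (25.3 against 8.05 CPM, 3.14-fold), Irx3 (48.9 against 25.3 CPM, 1.93-fold), Lix1 (30.6 against 8.55 CPM, 3.57-fold) and Zic1 (33.5 against 10.9 CPM, 3.08-fold). Zic1, a zinc finger factor of the dorsal neural tube, was within 1.5-fold of all other cells together (33.5 against 28.3 CPM). Neurog2, with 65 and 33 UMIs just under the minimum for a measured gene, was at 14.9 CPM against 5.53 CPM (2.70-fold, 1.75 to 4.24), and Tubb3 at 28.3 CPM against 4.19 CPM (6.74-fold, 4.36 to 10.8).

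Cdx2 was level between these sets, at 506 CPM and 494 CPM, a ratio of 1.02 (0.97 to 1.08), whereas Nkx1-2 was 1.65-fold higher in the Sox2-without-T cells (1.47 to 1.85; 146 against 88.7 CPM). Of 16 measured caudal epiblast and NMP genes, 2 were higher and 5 lower, around a median log2 ratio of -0.24. Fgf8 was 7.09-fold lower (19.5 against 139 CPM; 5.67 to 8.97) and Cyp26a1 3.53-fold lower (12.2 against 42.9 CPM; 2.61 to 4.83). Hox groups 5 to 9 had 2 higher, Hoxa9 and Hoxa7, and 2 lower of 11 measured, with a median of 0.11. Arg1 was 16.8-fold lower (8.04 against 135 CPM), and Cdkn1c 2.84-fold lower (164 against 465 CPM).

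The order of the 5 sets was not the same for all genes. Nkx1-2 was at 146 CPM in the Sox2-without-T cells, 88.7 in the cells with Sox2 and T, 73.2 in the cells with none of these, 47.9 in the cells with T and little Sox2, and 23.4 in the mesoderm cells. Lix1 was as high in the cells with none of these, at 32.9 CPM, as in the Sox2-without-T cells, at 30.6 CPM. Cdkn1c was at 164 CPM in the Sox2-without-T cells and 140 CPM in the mesoderm cells, and highest at 972 CPM in the cells with T and little Sox2. Arg1 was low in both the Sox2-without-T cells (8.04 CPM) and the cells with none of these (9.24 CPM), against 116 to 135 CPM in the other 3 sets.

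Cells just outside the rule were compared with those just inside, with no test. On the Sox2 side, the 33 cells with exactly 2 Sox2 UMIs had Nkx1-2 at 130 CPM, Irx3 at 52.2 CPM and Hoxb9 at 264 CPM. The 49 cells with 1 Sox2 UMI that met the rest of the rule had Nkx1-2 at 95.7 CPM, Irx3 at 34.0 CPM and Hoxb9 at 144 CPM, and the 97 cells with none had 60.5, 16.1 and 63.4 CPM of the same genes. Each of these levels was thus lower at 1 Sox2 UMI than at 2, and lower again at 0. Tubb3 did not follow this order. It was at 9.23 CPM with no Sox2 UMI, 10.3 CPM with 1, 4.23 CPM with 2 and 32.9 CPM in the 146 cells with 3 or more.

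On the T side, some genes were alike at 0 and 1 T UMI and others were not. The Sox2-without-T cells had Irx3 at 48.9 CPM, Neurog2 at 14.9, Nkx1-2 at 146, Epha5 at 58.4 and Hoxb9 at 298, against 60.2, 19.8, 146, 63.7 and 313 CPM in the 62 cells with exactly 1 T UMI that met the rest of the rule. The 180 cells with at least 2 T UMIs had Irx3 at 14.3 CPM, Neurog2 at 1.12, Nkx1-2 at 70.0, Epha5 at 19.1 and Hoxb9 at 179. Rspo3 differed at both steps, at 39.8 CPM in the Sox2-without-T cells, 127 CPM with 1 T UMI and 553 CPM with at least 2. Tubb3 (28.3 against 8.21 CPM) and Hes5 (25.3 against 10.3 CPM) were higher without T than with 1 T UMI. The other side of the rule left 3 cells with Tbx6 and 6 cells with at least 2 UMIs of Meox1 and Tcf15, too few to describe.

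**Figure D4:**
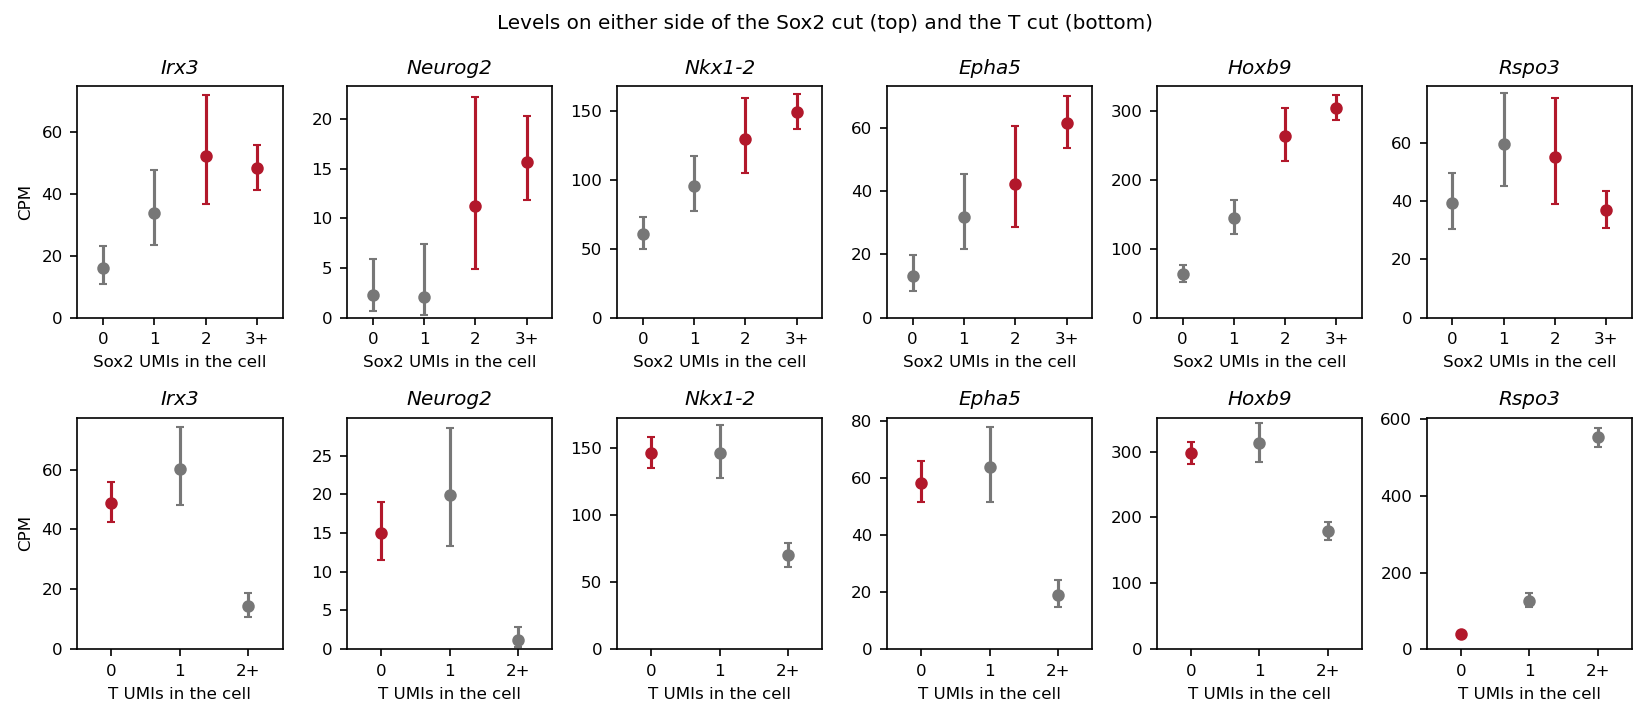
Level of 6 genes (CPM, from 0) by the number of Sox2 UMIs in cells without T and mesoderm genes (top) and by the number of T UMIs in cells with at least 2 Sox2 UMIs and without mesoderm genes (bottom); cells inside the rule are red and bars are 95% Poisson intervals. Irx3, Neurog2, Nkx1-2, Epha5 and Hoxb9 are alike at 0 and 1 T UMI and lower at 2 or more, where Rspo3 reaches 553 CPM.

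The Sox2-without-T cells differed among themselves. Neurog2 had a UMI in 26 of the 179 cells, whose median depth was 26425 UMIs against 22899 in the 153 cells without one. Other proneural genes were higher in the cells with Neurog2, namely Gadd45g, a growth arrest gene (81.0 against 24.5 CPM, 3.31-fold, 2.33 to 4.66), Hes6, an inhibitor of Hes1 (121 against 56.1 CPM, 2.17-fold, 1.66 to 2.80), and the ligand Dll1 (30.7 against 15.1 CPM, 2.03-fold, 1.18 to 3.39). Dll1 rested partly on 1 cell, without which it was 1.57-fold (0.84 to 2.77), and in thinned cells a Dll1 UMI was found in 1 of the 26 cells and 10 of the 153. Tubb3 was at 64.2 CPM against 21.2 CPM, but 1 of the 26 cells held 27 of their 46 Tubb3 UMIs, and without it Tubb3 was at 27.2 CPM, a ratio of 1.28 (0.73 to 2.14). Btbd17 (96.4 against 31.4 CPM) and Mfng (44.7 against 18.4 CPM) were 3.07-fold and 2.42-fold higher. Nkx1-2 (170 against 141 CPM, 1.21-fold, 0.98 to 1.47), Cdx2 (492 against 509 CPM) and Irx3 (43.3 against 50.05 CPM) had intervals that held equal levels. Id3 was 0.29-fold (15.4 against 52.8 CPM, 0.14 to 0.53) and Stmn2 0.31-fold (16.8 against 54.7 CPM, 0.16 to 0.55).

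**Figure D5:**
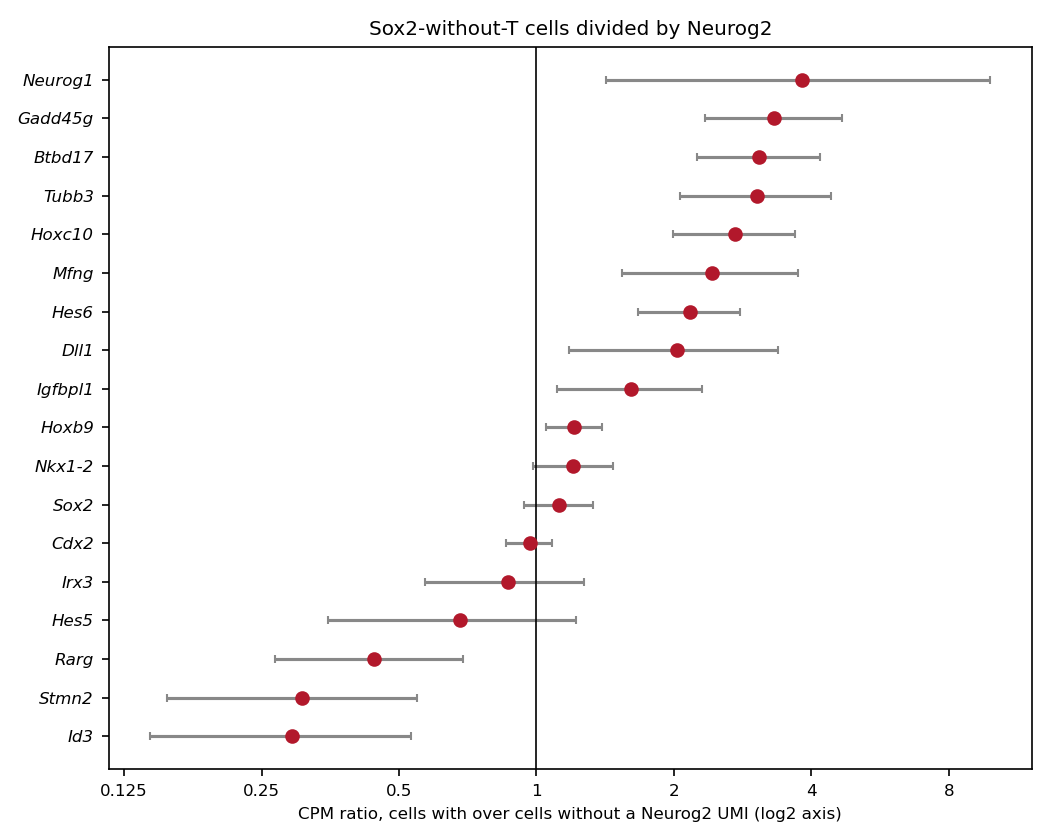
Ratio of CPM (log2 axis) between the 26 Sox2-without-T cells with a Neurog2 UMI and the 153 without, with 95% counting intervals, for 18 genes. Gadd45g, Btbd17, Hoxc10, Mfng and Hes6 lie above 2, as does Tubb3, which is at 1.28 without 1 cell that holds 27 of its 46 UMIs. Nkx1-2, Cdx2 and Irx3 lie near 1, and Rarg, Stmn2 and Id3 lie below 0.5.

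The markers were also counted cell by cell. In thinned cells Irx3 was present in 62 of 179, Hes5 in 22 and Neurog2 in 13, with Irx3 and Hes5 together in 12, Irx3 and Neurog2 in 8, and Hes5 and Neurog2 in 1. Of the 13 cells with Neurog2, 12 also had Nkx1-2 and 13 had Cdx2. Of the 22 with Hes5, 14 had Nkx1-2 and 21 had Cdx2. At this depth the absence of a UMI does not show the absence of the RNA.

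Before thinning, 161 of the 179 cells (89.9%) had a Nkx1-2 UMI, and the 18 without one had a lower median depth, 17838 against 23623 UMIs. Where Nkx1-2 was present, Cdx2 was 2.01-fold (529 against 263 CPM, 1.64 to 2.49) and Lin28a 2.44-fold higher (119 against 48.8 CPM, 1.53 to 4.16), and so were Hoxc9 (122 against 51.5 CPM, 2.36-fold) and Hoxb9 (308 against 187 CPM, 1.64-fold). Hes5 was at 15.8 CPM with and 128 CPM without Nkx1-2, and Tubb3 at 23.6 CPM with and 78.7 CPM without. The cell with 27 Hes5 UMIs and the cell with 27 Tubb3 UMIs are both among those 18, and account for 27 of 47 Hes5 UMIs and 27 of 29 Tubb3 UMIs there. Without the first of these only, the cells lacking Nkx1-2 had Hes5 at 57.9 CPM. Without the second only, they had Tubb3 at 5.70 CPM, so the order of Tubb3 turned round. Without the cell among the 18 with the most Hoxc9, Hoxc9 was 4.56-fold higher where Nkx1-2 was present.

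The same rule, applied to the TRUE cells of the other libraries, chose 655 of 3116 ES-NMP cells (21.0%), 65 of 2386 Epi-CE cells (2.72%) and 179 of 2109 Epi-CE-T cells (8.49%). Library and condition cannot be told apart in what follows. The levels of several genes in them lay far from those in Epi-NMP. Pou5f1 was at 14.9 CPM in the Epi-NMP cells of the rule, against 488 CPM in ES-NMP, 401 CPM in Epi-CE and 127 CPM in Epi-CE-T. Hoxb9 was at 298 CPM in Epi-NMP, against 34.3 CPM, 0 CPM and 0.38 CPM, and Neurog2 at 14.9 CPM, against 0.80 CPM, 0 CPM and 0.19 CPM, in the same order. Crabp1, a retinoic acid binding protein, was at 8.73 CPM in Epi-NMP, 209 CPM in ES-NMP, 3.99 CPM in Epi-CE and 212 CPM in Epi-CE-T.

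Within each library, the cells of the rule were also set against the rest of that library. Dll3 was lower in all 4, by 2.35 in Epi-NMP, 2.59 in ES-NMP, 2.35 in Epi-CE and 2.88 in Epi-CE-T on the log2 scale, and Fgf8 was lower in all 4 as well, 4.00-fold in Epi-NMP and with log2 ratios of -3.55 in ES-NMP, -3.85 in Epi-CE and -1.41 in Epi-CE-T. The rule removed cells with T or Tbx6 in every library, so the shared direction of Dll3 and Fgf8 may describe what it removed. How far it does was not tested. Tubb3 was higher in all 4 (log2 ratios of 2.77, 0.93, 1.44 and 1.97). Nkx1-2 was not: its log2 ratio was 1.21 in Epi-NMP, -1.44 in ES-NMP, -0.05 in Epi-CE and 1.36 in Epi-CE-T. In ES-NMP, Nkx1-2 was at 57.1 CPM in the cells of the rule and 155 CPM in the others, and Cdx2 at 107 CPM and 281 CPM.

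Hox genes differed between Epi-NMP and ES-NMP in the same sense. In ES-NMP each of the 13 genes measured in Hox groups 5 to 9 was at least 1.5-fold lower in the cells of the rule, with a median log2 ratio of -1.21, where 6.16% of 11363 measured genes were at least 1.5-fold higher and 12.6% at least 1.5-fold lower. Hoxb9 was at 34.3 CPM in those cells and 56.9 CPM in the other ES-NMP cells. In Epi-NMP, 7 of the 12 measured genes were higher. The difference between the libraries was not tested.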

How the data were processed

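Single-cell RNA libraries of 4 mouse populations, 1 per group, were made with the 10x Chromium system and sequenced on an Illumina HiSeq, per the labels' protocols. Cell Ranger 1.3.1, Seurat 2.0 and build mm10 are named in the submitters' processing notes; alignment settings and strandedness are not given in the sources used here. Raw UMI counts were deposited by the authors as whole numbers per gene and barcode without normalization, with a cell table that gives each barcode's library and a TRUE or FALSE mark, whose meaning is not given in the sources used here. Among all libraries the lowest TRUE barcode had 8011 UMIs.

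The members, their markers, the 30 gene lists (376 of 377 genes in the table) and the comparisons were chosen with earlier results of these data known. Raw counts were summed over each set of cells and divided by the set's total UMIs. Sums have exact Poisson intervals, ratios exact conditional binomial intervals and shares exact Clopper-Pearson intervals, at 95%, for counting error only; the floor for a count of 0 was 3 UMIs. A list is described by its measured genes, those at least 1.5-fold apart, and its median. The named genes were the 12 highest and 12 lowest ratios among genes that reached 100 UMIs in the sum of the sets and 20 CPM in the higher one, without ribosomal protein, mitochondrial and predicted genes, the 4 largest absolute log2 ratios in each list, and Irx3, Neurog2, Hes5, Nkx1-2, Cdx2 and Sox3; other genes were named after their values were seen. Shares came from cells thinned to 8000 UMIs. Scrublet, in scanpy 1.11.5, called 1 of 2624 Epi-NMP barcodes, so it did not work as a doublet caller; all cells were kept, and the top 5% of scores held 10 of the 179 cells and 46 of the 932 others. The results were recomputed under 12 other settings of cell choice, scaling and minimum, and 1 more, without cells that share a barcode sequence with another library, was added after the data had been seen, as was leaving out the cell with most UMIs of a gene, in the whole set or in a subset. TMM factors came from edgeR 4.0.16. The ratio code was tested on simulated counts.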

Additional observations from a re-analysis of the deposited data

Results flagged for a closer look

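Under the same rule, the contrast of the chosen cells with the rest of their library went opposite ways in Epi-NMP and ES-NMP for both caudal factors followed in every library. The log2 ratio of Nkx1-2 was 1.21 in Epi-NMP and -1.44 in ES-NMP, and that of Cdx2 was 0.78 in Epi-NMP and -1.39 in ES-NMP. Each library is 1 sample, and the difference was not tested.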

How the results depend on the processing

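The rule on counts thinned to 8000 UMIs chose 114 cells, and the other choices of cells 146 to 228. With no minimum on UMIs there were 1436 genes at least 1.5-fold higher in the Sox2-without-T cells and 2357 genes at least 1.5-fold lower in the Sox2-without-T cells. The median log2 ratio of the proneural and early neuron list was the least stable: it was -0.48 without the cells under the 10th and over the 90th percentile of depth (8 genes measured), -1.07 with levels from thinned counts (5 genes) and 1.23 with no minimum (19 genes), so fewer or more genes were measured in each. The median of the caudal epiblast and NMP list was -0.11 with all Epi-NMP barcodes. The median log2 ratio of the paraxial and presomitic mesoderm list was lowest at -2.73 and highest at -1.93 over the alternatives run. Acta2 changed sign with a Sox2 minimum of 3 UMIs (-0.58) and with the rule on thinned counts (-0.86), as did Pou5f1 with the rule on thinned counts (-1.65) and without the cells of lowest and highest depth (-0.33); 1 cell held 52.6% of the Acta2 and 46.2% of the Pou5f1 UMIs. Hes5 was at 0.97 with the rule on thinned counts. With all barcodes Ncam1 was at 0.58 and Spry2 at -1.73. Of 1482 values of the 114 named genes under alternatives, 1369 stayed within their counting interval, 109 moved and 4 were counted as reversed. The reversed values were those of Acta2 and Pou5f1. Sign changes also fell among the moved values. Pou3f1 was at 1.34 with a Sox2 minimum of 1 UMI, against -0.30. Hoxd10 was at 0.76 with the rule on thinned counts, against -0.47. By size, 80 of the 1482 values moved by over 1.5 times, and 24 values in 11 of the 88 genes past 1.5-fold lost that fold. No paired analysis was possible because each group is 1 library.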

Other observations

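Genes of cell shape and adhesion were lower or within 1.5-fold in the Sox2-without-T cells. Of the 9 measured of 14, none was at least 1.5-fold higher and 4 were lower. Vim, the intermediate filament vimentin, was at 212 CPM in the Sox2-without-T cells and 430.2 CPM in the other Epi-NMP cells (2.03-fold lower, 1.90 to 2.18). With a Sox2 minimum of 1 UMI its log2 ratio was -0.32, against -1.02. The simple epithelial keratins Krt18 (37.7 against 87.3 CPM) and Krt8 (17.5 against 38.03 CPM) were 2.32-fold and 2.18-fold lower. A single cell held 45.1% of the Krt18 UMIs, without which the log2 ratio was -2.06, against -1.21, and Krt8 was no longer 1.5-fold lower with the rule on thinned counts (-0.58). Cdh11, a mesenchymal cadherin, had 7 UMIs and was 7.43-fold lower (1.61 against 11.9 CPM), with a log2 ratio of -0.79 with a Sox2 minimum of 1 UMI, against -2.89. Cdh2, N-cadherin, was at 82.0 CPM against 101 CPM.

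A Pou5f1 UMI was found in 14 of the 179 cells, with a median depth of 26608.5 UMIs against 23054 in the 165 without one. Stmn2 was at 228 CPM in the cells with Pou5f1 and 30.8 CPM in those without (7.40-fold, 5.57 to 9.81), and Ncam1 was at 125.5 CPM against 235 CPM (a ratio of 0.53, 0.39 to 0.71). Cdx2 (348 against 522 CPM) and Hoxb9 (213 against 306 CPM) had ratios of 0.67 and 0.69. These are sums over few cells of 1 library, with no replicate.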
